A study of Drosophila melanogaster with 6 samples.

Results

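The vacuolar proton pump of Drosophila melanogaster is described here through 31 genes measured in whole larvae, out of 13402 genes with an array row of their own. The members are the genes whose platform symbol starts with Vha, on rows annotated with exactly 1 symbol, and each of the 31 had 1 such row, so that no choice between rows was needed. All 31 were found by identifier, under the same symbol, in the RefSeq gene table of the fly assembly. RNA came from larvae of strain w1118, aged 5 days, in 2 groups of 3 arrays. The juice-fed group was raised from the egg on a semi-purified diet to which palm fruit juice, a preparation of oil palm fruit, had been added, and the control group on the same diet without it. Each array held whole-body RNA pooled from 3 to 4 larvae, so it gives no value for a single larva or organ. In pooled whole bodies, fewer cells of a type and less RNA per cell cannot be told apart. The dose figures in the labels contradict each other and are not used here.

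The pump is a rotary machine of a cytosolic sector, V1, which hydrolyses ATP, and a membrane sector, V0, which carries protons across the membrane. It acidifies lysosomes, endosomes and secretory vesicles in every cell, and in flies it also sits in the apical plasma membrane of epithelia, where the Malpighian tubules, the fly's renal organ, use its proton gradient to drive ion and fluid secretion and the copper cells of the midgut use it to secrete acid. Fly genomes carry several copies of many subunits. One copy is usually expressed widely or in epithelia, while many of the others are known mainly from the testis or from a few tissues. The first kind is called a main subunit below and the second a minor paralog. The classes follow general knowledge and not values of these arrays, but were set with earlier results of these data known. Subunit letters follow the naming of the yeast and mammalian pump.

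The 12 main subunits all had a higher mean in juice-fed than in control larvae, by small amounts that no test called. Their differences ran from 0.06 to 0.29 on the log2 scale, or 1.04-fold to 1.22-fold, with a median of 0.14. The 18 minor paralogs split into 8 with a higher and 10 with a lower juice mean, with a median difference of -0.04. VhaAC45, the fly counterpart of the mammalian accessory subunit Ac45, differed by 0.0048 ± 0.13 (log2 difference ± moderated SE, as in all such pairs below), the smallest of the 31 in size. Across all 13402 genes 45.1% had a higher juice mean and 54.9% a lower one, and the median difference was -0.02.

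Of the 31 members 26 passed the filter on dim genes, which set aside the dimmest 25% by mean log2 value, those under 2.63. No member passed limma's test among the 10051 genes tested, with adjusted p between 0.931 and 0.999. The test called 0% of all genes at adjusted p under 0.05. At unadjusted p under 0.05 it called 0 of the 26 members, against 4.68% of all genes tested, and limma's fit without moderation also called 0. Correlations of arrays over the genes tested ran from 0.940 to 0.984 between the groups and from 0.955 to 0.981 within them. The pools gave moderate precision, since the 95% intervals of the fold differences of the main subunits reached from 0.763 to 1.75 over all 12. A difference of 2-fold in either direction lay outside the interval of every main subunit, while the lowest of their upper bounds was 1.32-fold.

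**Figure D1:**
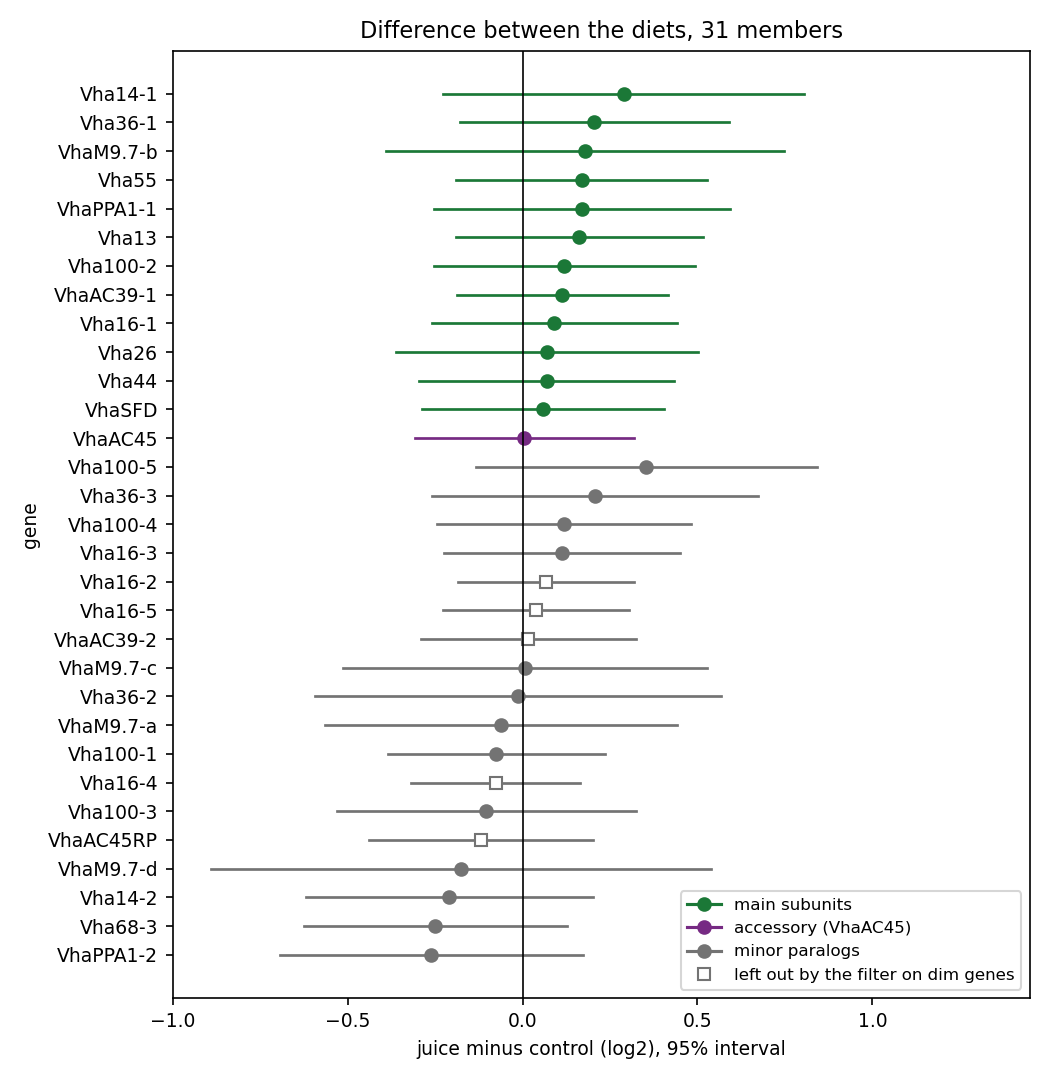
Juice minus control difference of each of the 31 members (x axis, log2) with limma's 95% interval as a bar, for main subunits, the accessory gene VhaAC45 and minor paralogs, each sorted by size. All 12 main subunits lie right of 0 and all 31 intervals include 0; open squares are the 5 members that the filter on dim genes left out.

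The V1 sector turns ATP hydrolysis into rotation of a central stalk. Its catalytic subunit A was represented by a minor copy, Vha68-3, since Vha68-2, classed as the main copy, and Vha68-1 were not analysed here. Of the main V1 subunits 7 were measured. Values below are log2 array values of replicates 1, 2 and 3 of each group, in that order.

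Vha55, the B subunit that forms the ATP-binding head together with A, had 8.88, 8.63 and 8.63 in juice-fed larvae, against 8.59, 8.68 and 8.37 in control larvae. Its difference was 0.17 ± 0.15, a 1.12-fold higher juice mean with an interval of 0.877 to 1.44 (limma, adjusted p = 0.931). Juice replicate 1 was the highest array and control replicate 3 the lowest, with the other juice arrays inside the control range. Without control replicate 3 the difference was 0.08.

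The central stalk is made of subunits D and F. Vha36-1, subunit D, had 8.38, 8.83 and 8.39 in juice-fed larvae, against 8.30, 8.35 and 8.34 in control larvae, and it was the only one of the 31 members in which every juice array lay above every control array. Across the genes tested 4.96% showed that arrangement. The lowest juice array lay close above the highest control array, and only juice replicate 2 stood apart. The mean difference was 0.20 ± 0.16, and 0.06 without juice replicate 2.

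Vha14-1, subunit F, had 7.50, 8.21 and 7.61 in juice-fed larvae, against 7.29, 7.49 and 7.67 in control larvae. With 0.29 ± 0.22 it showed the largest difference among the main subunits, 1.22-fold with an interval of 0.854 to 1.75 (limma, adjusted p = 0.931). Here too juice replicate 2 stood above all other arrays, and control replicate 3 was higher than both remaining juice arrays. The difference was 0.07 without juice replicate 2.

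The stator, which holds the head still against the membrane, contains subunits E, G and C. Vha26, subunit E, had 8.47, 8.15 and 8.62 in juice-fed larvae, against 8.52, 8.40 and 8.10 in control larvae, with the lowest values in juice replicate 2 and control replicate 3. Vha13, subunit G, had 9.28, 9.27 and 8.95 in juice-fed larvae, against 8.905, 9.09 and 9.03 in control larvae, with juice replicate 3 inside the control range and both other juice arrays above it. Vha44, subunit C, the clamp that comes off when the pump is disassembled, had 8.61, 8.26 and 8.44 in juice-fed larvae, against 8.48, 8.41 and 8.21 in control larvae.

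In Vha44, as in Vha26, juice replicate 2 and control replicate 3 were the lowest arrays, so both groups spanned much the same range. The differences were 0.07 ± 0.18 for Vha26, 0.16 ± 0.15 for Vha13 and 0.07 ± 0.16 for Vha44. Without control replicate 3 they were -0.05 for Vha26, 0.17 for Vha13 and -0.01 for Vha44. VhaSFD, the regulatory subunit H, had 7.99, 8.19 and 7.89 in juice-fed larvae, against 8.01, 8.05 and 7.83 in control larvae and a difference of 0.06 ± 0.15, the smallest among the main subunits, which was -0.0086 without control replicate 3.

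The V0 sector holds the proton path. Its rotating ring is built of proteolipids, mostly Vha16-1, subunit c, with the related VhaPPA1-1. Vha16-1 had 10.59, 10.50 and 10.69 in juice-fed larvae, against 10.66, 10.53 and 10.31 in control larvae, with overlapping groups and a difference of 0.09 ± 0.15 (limma, adjusted p = 0.956), which was -0.0029 without control replicate 3. VhaPPA1-1 had 8.72, 9.27 and 8.92 in juice-fed larvae, against 8.65, 8.86 and 8.89 in control larvae. Juice replicate 2 was again apart from the rest, and without it the difference of 0.17 ± 0.18 became 0.02.

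Vha100-2, a copy of the large subunit a that carries the proton channels, had 7.70, 7.70 and 7.40 in juice-fed larvae, against 7.57, 7.58 and 7.29 in control larvae. Juice replicate 3 and control replicate 3 were the low arrays, and the difference was 0.12 ± 0.16, or 0.02 without control replicate 3. VhaAC39-1, subunit d at the foot of the central stalk, had 8.62, 8.72 and 8.52 in juice-fed larvae, against 8.52, 8.50 and 8.50 in control larvae. It varied least among the main subunits, with 0.224 between its highest and lowest array, and its control arrays had an SD of only 0.01.

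VhaM9.7-b, the small membrane subunit e, had 7.90, 8.66 and 7.99 in juice-fed larvae, against 7.74, 8.04 and 8.24 in control larvae. It varied most among the main subunits, by 0.926 from the lowest to the highest array, and its difference of 0.18 ± 0.24 turned to -0.06 without juice replicate 2. VhaAC45, which helps assemble and sort the pump, had 8.89, 8.83 and 8.67 in juice-fed larvae, against 8.84, 8.74 and 8.80 in control larvae, with all control values inside the juice range. ATP6AP2, a further accessory gene once named VhaM8.9 and outside the symbol rule, had 6.44, 7.06 and 6.46 in juice-fed larvae, against 6.43, 6.41 and 6.38 in control larvae. Every juice array lay above every control array, as in 4.96% of the genes tested, yet only juice replicate 2 stood apart. The difference of 0.24 ± 0.19 was 0.04 without that array.

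Both sectors showed the same direction. The median difference was 0.16 over the 7 main V1 subunits and 0.12 over the 5 main V0 subunits, and each sector's subunits all had a higher juice mean. The count of 12 of 12 stands beside 44.9% of the genes tested, and beside 43.6% of the 877 genes at least as bright as the dimmest main subunit, a comparison added after the values were seen. Subunits share their arrays and are not independent of each other. The count was 10 of 12 without juice replicate 2, against 41.7% of those bright genes, and 8 of 12 without control replicate 3, against 44.2%. It was also 8 of 12 without both control replicate 1 and juice replicate 2, against 44.8%. The median difference was 0.069 without juice replicate 2 and 0.066 without both of those arrays.

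The main subunits fell into different array patterns, picked out after their values were seen and given without a test. In VhaM9.7-b, Vha14-1, VhaPPA1-1 and Vha36-1 juice replicate 2 was the highest array and control replicate 1 the lowest, an arrangement found in 6.97% of the genes tested. ATP6AP2 shared the high juice replicate 2. Vha16-1, Vha26 and Vha44 ran the other way in that array: juice replicate 2 and control replicate 3 were their lowest arrays, as in 6.79% of the genes tested. In all, juice replicate 2 was the highest array in 7 of the 12 main subunits, against 27.1% of the genes tested, and control replicate 3 the lowest in 6, against 12.7%. The count of 7 was 6 with quantile normalization and 5 with array medians made equal, while the 27.1% is of the values as deposited. The highest array was juice replicate 2 in Vha14-1 and Vha36-1 of the stalk. In the stator it was juice replicate 3 in Vha26 and juice replicate 1 in Vha13 and Vha44.

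**Figure D2:**
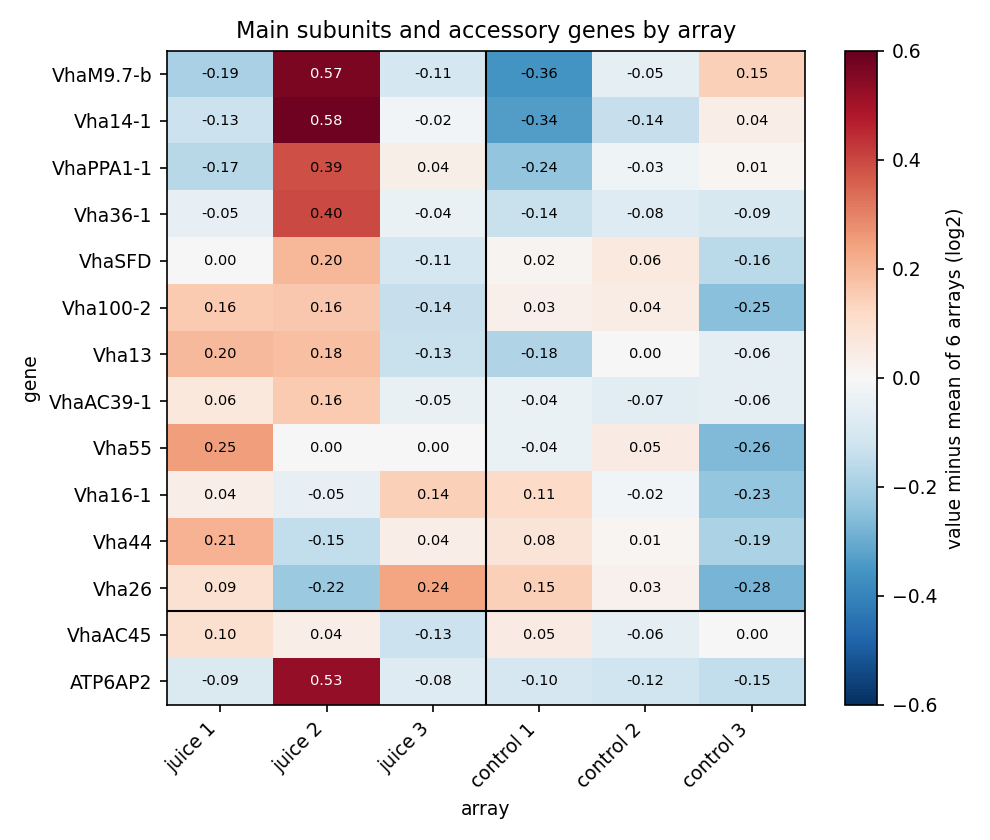
Value of each main subunit, of VhaAC45 and of ATP6AP2 on every array, as the difference from that gene's mean over 6 arrays (colour and printed number, log2), with juice arrays left of the line and genes sorted by how far juice replicate 2 lies above the other juice arrays. VhaM9.7-b and Vha14-1 are 0.57 and 0.58 above their means in juice replicate 2, while Vha26 is 0.28 below its mean in control replicate 3 and 0.22 below it in juice replicate 2.

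Mitf, the fly member of the TFEB family of transcription factors and a known activator of pump genes in flies, was measured beside them. It had 7.53, 6.98 and 7.93 in juice-fed larvae, against 7.63, 7.47 and 7.03 in control larvae, a difference of 0.10 ± 0.27 (limma, adjusted p = 0.981). Juice replicate 2 and control replicate 3 were its lowest arrays and juice replicate 3 its highest, the same as in Vha16-1 and Vha26. This likeness was noticed after the values were seen, and whether it bears on those subunits was not tested.

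The minor paralogs gave dim rows. Their means over all arrays ran from 2.21 to 6.76 on the log2 scale, against 7.54 to 10.55 for the main subunits, and 13 of the 18 passed the filter on dim genes. Rows differ in how brightly their probes hybridise, so these ranges describe the rows and do not rank transcripts. The 5 members below the filter were VhaAC45RP, Vha16-5, Vha16-2, VhaAC39-2 and Vha16-4, and just above it lay Vha100-4 and VhaM9.7-a, each with a mean of 2.64. For the ring subunit c, every copy other than Vha16-1 had a mean under 3. Some copies are neighbours on a chromosome in the RefSeq gene table: Vha100-4 lies next to Vha100-2, Vha16-3 next to Vha16-2, and VhaPPA1-2 is parted from VhaPPA1-1 by 1 protein-coding gene.

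**Figure D3:**
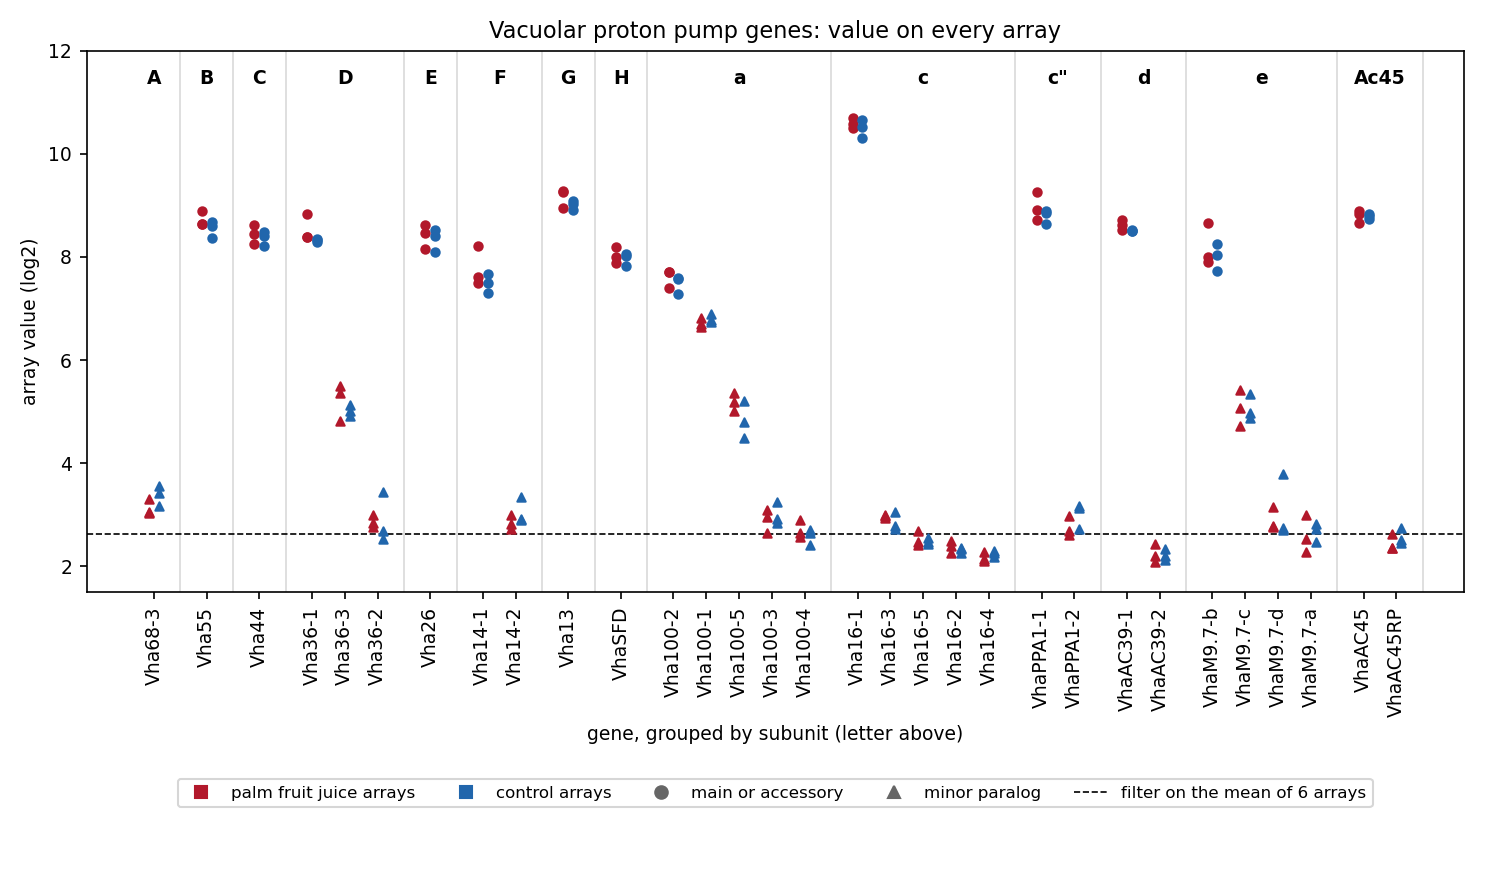
Log2 array values (y axis) of all 31 members on each of 3 juice and 3 control arrays, grouped by subunit letter, with circles for main and accessory genes and triangles for minor paralogs. Each main subunit lies above 7 on every array, most minor paralogs lie near the dashed filter line at 2.63, and Vha100-1, Vha36-3, Vha100-5 and VhaM9.7-c lie between.

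Among copies of subunit a, Vha100-1, the copy known from synapses, averaged 6.72 ± 0.09 in juice-fed and 6.79 ± 0.08 in control larvae (mean ± SD, n = 3 per group), a difference of -0.08 ± 0.13. Vha100-5 had 5.36, 5.18 and 5.01 in juice-fed larvae, against 4.49, 5.20 and 4.80 in control larvae. With 0.35 ± 0.21 it showed the largest difference of all 31 members, 1.28-fold with an interval of 0.911 to 1.79, and the smallest unadjusted p, 0.131 (limma, adjusted p = 0.931). Control replicate 2 lay within the juice range, and without control replicate 1, its lowest array, the difference was 0.19.

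Vha100-4 had 2.89, 2.64 and 2.58 in juice-fed larvae, against 2.42, 2.70 and 2.64 in control larvae, all close to the filter, and a difference of 0.12 ± 0.15. Vha36-3, a copy of stalk subunit D, had 5.35, 5.50 and 4.83 in juice-fed larvae, against 4.92, 5.12 and 5.02 in control larvae, with juice replicates 1 and 2 above all control arrays and juice replicate 3 below them. Its difference was 0.21 ± 0.20. VhaM9.7-c, a copy of subunit e, averaged 5.07 ± 0.35 in juice-fed and 5.06 ± 0.25 in control larvae (n = 3 per group) and so differed by 0.01 ± 0.22.

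Copies of other subunits were lower in juice-fed larvae without passing the test. Vha68-3, the copy of catalytic subunit A, had 3.05, 3.04 and 3.30 in juice-fed larvae, against 3.42, 3.16 and 3.55 in control larvae, a difference of -0.25 ± 0.16 (limma, adjusted p = 0.931). VhaPPA1-2, the ring protein's second copy, had 2.60, 2.97 and 2.68 in juice-fed larvae, against 3.14, 3.18 and 2.71 in control larvae, a difference of -0.26 ± 0.18, the lowest of the 31 members. In both, 1 control array lay inside the juice range.

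Vha14-2, a copy of stalk subunit F, had 2.72, 3.00 and 2.82 in juice-fed larvae, against 3.35, 2.90 and 2.92 in control larvae, a difference of -0.21 ± 0.17. VhaM9.7-d, a copy of subunit e, had 2.79, 3.16 and 2.77 in juice-fed larvae, against 3.78, 2.74 and 2.71 in control larvae. In both, control replicate 1 was the highest array, by 1.06 over the mean of the other control arrays in VhaM9.7-d. Without it the difference of VhaM9.7-d, -0.18 ± 0.30, turned to 0.18, and that of Vha14-2 became -0.06. Vha16-3, a copy of ring subunit c, had 2.93, 2.99 and 2.97 in juice-fed larvae, against 3.06, 2.77 and 2.73 in control larvae, where control replicate 1 was again the highest array but the other control arrays were the lowest, for a difference of 0.11 ± 0.14. Vha36-2, named after its values were seen, had 2.84, 3.00 and 2.75 in juice-fed larvae, against 3.43, 2.53 and 2.68 in control larvae, with the same high control replicate 1. Its difference was -0.014, and 0.26 without that array. The remaining paralogs lay close to 0: Vha100-3, a copy of subunit a, differed by -0.10 ± 0.18, VhaM9.7-a, a copy of subunit e, by -0.06 ± 0.21, and the 5 members below the filter by -0.12 (VhaAC45RP) to 0.07 (Vha16-2).

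Control replicate 1 was the highest array in 8 of the 18 minor paralogs and in 0 of the 12 main subunits, against 20.0% of all genes and 20.1% of the genes tested. It was the lowest array in 5 of the 12 main subunits, against 13.9% of the genes tested. With array medians made equal the count of minor paralogs highest in control replicate 1 was 5 of 18, while the shares given are of the values as deposited. Juice replicate 1 was the lowest array in 8 of the 18, against 24.0% of all genes. Without control replicate 1 the median difference of the minor paralogs was 0.014, and 10 of 18 had a higher juice mean, against 48.6% of all genes. The sign of that median, -0.04 over all arrays, was not tied to 1 array: it was 0.0037 without juice replicate 1, but -0.10 without juice replicate 2 and -0.098 without control replicate 2. With equal array medians it was 0.0073, where the median of all genes was 0.026.

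Testis marker genes were high in the same array. Of 16, 11 passed the filter on dim genes, and 13 were highest in control replicate 1, against 20.0% of all genes. Of the 16, 4 had a higher and 12 a lower juice mean, with a median difference of -0.19 that was 0.07 without control replicate 1. Their mean log2 value was 3.30, 3.58 and 3.50 in juice replicates 1, 2 and 3, against 4.23, 3.31 and 3.61 in control replicates 1, 2 and 3. The sperm tail gene djl lay 2.56 above the mean of the other control arrays in control replicate 1, Mst98Ca 2.06 above it and the testis tubulin betaTub85D 2.00 above it, 3 genes named after their values were seen. Their part in the values of the minor paralogs was not tested.

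**Figure D4:**
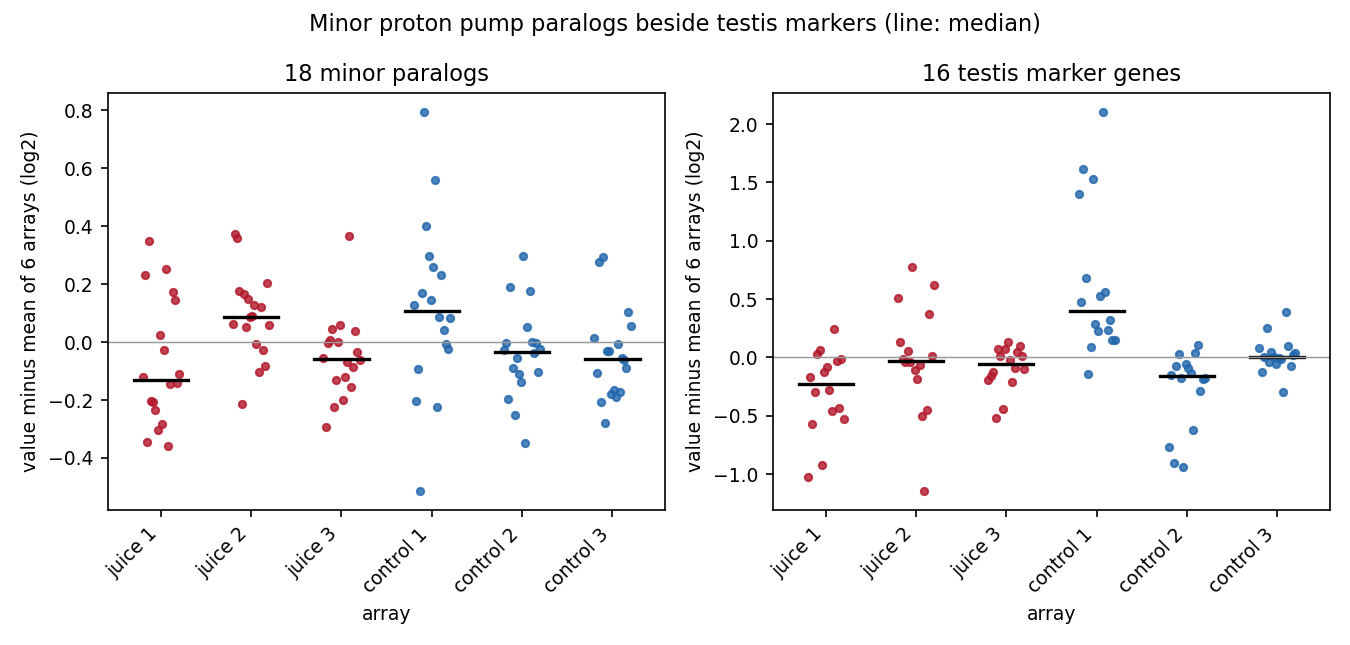
Values of the 18 minor paralogs (left) and of 16 testis marker genes (right) on each array, as the difference from each gene's mean over 6 arrays (log2); points are genes, black lines medians, and the panels have different y scales. Control replicate 1 is the highest array for 8 of the paralogs and for 13 of the testis markers, against 20.0% of all genes.

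Malpighian tubule markers, of which 5 had a row of their own and 4 passed the filter, were higher in the juice mean in 5 of 5 cases, against 45.1% of all genes, with a median difference of 0.39. The median lay between 0.35 and 0.48 with any 1 array left out. Their mean log2 value was 3.97, 4.25 and 4.11 in juice replicates 1, 2 and 3, against 3.70, 3.71 and 3.85 in control replicates 1, 2 and 3, so the groups did not overlap. The potassium channel gene Irk3 had 5.16, 5.47 and 5.18 in juice-fed larvae, against 4.50, 4.90 and 4.73 in control larvae, a difference of 0.56 ± 0.17, and the organic anion transporter gene Oatp58Da 3.21, 3.47 and 3.53 in juice-fed larvae, against 2.98, 3.10 and 2.98 in control larvae, a difference of 0.39 ± 0.14. Both had every juice array above every control array, as in 4.96% of the genes tested. They were 2 of the 4 tested markers at unadjusted p under 0.05 (0.0111 and 0.031), against 2.68% of the genes tested called higher at that p, but neither passed (limma, adjusted p = 0.931 each). Oatp58Db and the zinc transporter gene ZnT35C differed by 0.31 ± 0.18 and 0.50 ± 0.28, and Oatp58Dc, below the filter, by 0.03 ± 0.10. In Oatp58Db every juice array also lay above every control array, but only just, with 3.654 in juice replicate 3 against 3.652 in control replicate 2. Without juice replicate 2 its difference was 0.15. The main subunits and these markers were thus both higher in the juice mean. Control replicate 3 was the lowest array in 6 of the 12 main subunits, but the highest control array in the marker mean. That mean includes ZnT35C, with 5.18, 4.37 and 5.45 in control replicates 1, 2 and 3. In Irk3, Oatp58Da and Oatp58Db control replicate 2 was the highest control array. Without control replicate 3, 8 of 12 main subunits and 5 of 5 markers had a higher juice mean. The part of tubule tissue in the pump values was not tested.

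Midgut markers, 6 with a row of their own, were also higher in the juice mean in 6 of 6 cases, against 44.9% of the genes tested, with a median difference of 0.14 and 0 at unadjusted p under 0.05, against 4.68%. The median was 0.061 without control replicate 1, where 2 of 6 had a lower juice mean, and 0.062 without juice replicate 3. Their mean log2 value was 6.13, 6.28 and 6.37 in juice replicates 1, 2 and 3, against 5.93, 6.32 and 6.12 in control replicates 1, 2 and 3, with overlapping groups. Of 5 nervous system markers 1 had a higher juice mean, against 44.9% of the genes tested, and 4 a lower one (median -0.31), and CadN, the neuronal cadherin, differed by -1.07 ± 0.31 with an unadjusted p of 0.0106 (limma, adjusted p = 0.931). The nervous system markers averaged 4.24, 3.66 and 4.39 in the juice replicates, against 4.55, 4.53 and 4.29 in the control replicates, so juice replicate 2 was the low array. Without it the median difference was -0.12 and that of CadN -0.69. The marker with a higher juice mean, elav, differed by 0.15 ± 0.24. Vha100-1, the synaptic copy of subunit a, had a lower juice mean, at a difference smaller than its SE. Unlike in the marker means, juice replicate 2 was its highest juice array, at 6.82.

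Ion transporters that work beside the pump differed in both directions without a call. Of 18 genes measured, 10 had a higher and 8 a lower juice mean, with a median difference of 0.03 that ran from -0.087 to 0.071 with 1 array left out. At unadjusted p under 0.05, 2 were higher, against 2.68% of the genes tested, and 2 lower, against 2.00%. Nha2, a sodium/proton antiporter of the kind that uses the pump's gradient, had 4.21, 4.29 and 3.57 in juice-fed larvae, against 3.42, 3.37 and 3.21 in control larvae, a difference of 0.69 ± 0.21, and Irk3 was the other higher gene.

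Nhe2, a sodium/proton exchanger, had 6.62, 6.03 and 6.17 in juice-fed larvae, against 6.67, 6.71 and 6.90 in control larvae, a difference of -0.49 ± 0.19, and the aquaporin gene Prip had 6.12, 6.35 and 6.53 in juice-fed larvae, against 7.13, 6.42 and 7.26 in control larvae, a difference of -0.61 ± 0.25. In Nha2, as in Irk3, every juice array lay above every control array, an arrangement of 4.96% of the genes tested. In Nhe2 every juice array lay below, as in 5.08%, while in Prip control replicate 2 lay within the juice range. CAH2 of the same list, named after its values were seen, also had every juice array below, with a difference of -0.29 ± 0.14. None of the 18 passed limma's test (adjusted p = 0.931 for Nha2, Irk3, Nhe2, Prip and CAH2).

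**Figure D5:**
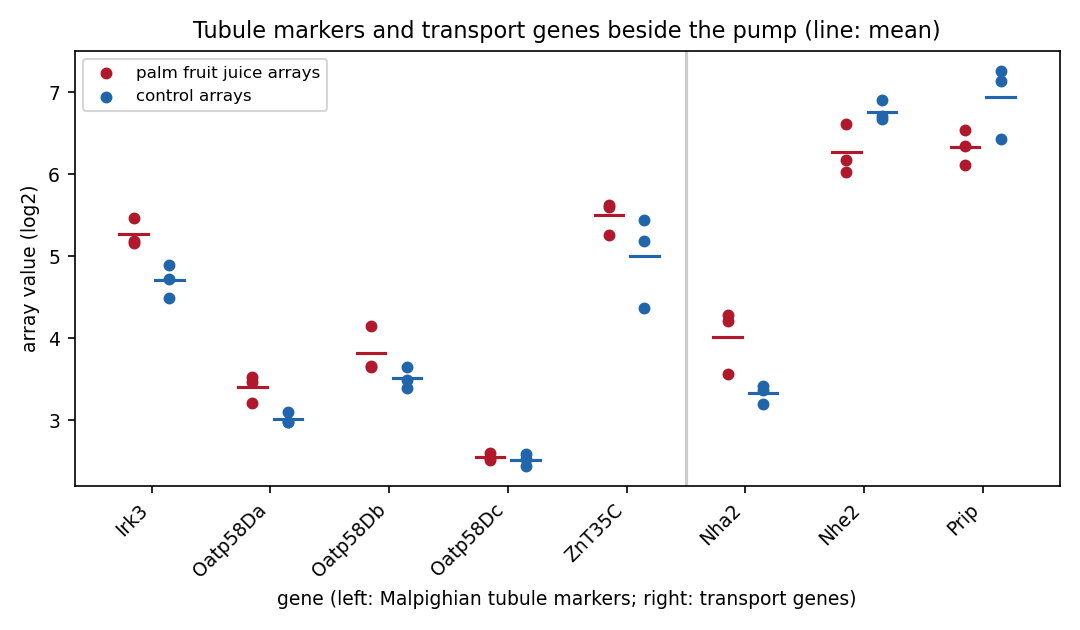
Log2 array values (y axis) of 5 Malpighian tubule markers (left of the line) and of 3 further ion and water transport genes, with points for the 3 juice and 3 control arrays and short lines for group means. Irk3, Oatp58Da, Oatp58Db and Nha2 have every juice point above every control point, as in 4.96% of the genes tested. In Oatp58Db the groups nearly touch (3.654 in juice replicate 3, 3.652 in control replicate 2). Nhe2 has every juice point below, as in 5.08%, and none passed limma's test.

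Genes that assemble or regulate the pump showed 0 of 8 members at unadjusted p under 0.05, against 4.68% of the genes tested, with 5 higher and 3 lower in the juice mean, against 44.9% higher. The split turned to 3 higher and 5 lower without control replicate 1 and also without juice replicate 2, and the median difference of 0.082 to -0.018 and -0.050. They include Rbcn-3B, which helps join V1 to V0, at -0.0032 ± 0.18, and genes of the lysosomal complex through which the pump is linked to growth control. Of that complex Lamtor1 differed by -0.16 ± 0.16, Lamtor3 by 0.21 ± 0.25 and Lamtor5 by 0.15 ± 0.27, and raptor of the TORC1 kinase by 0.11 ± 0.14.

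Lysosomal genes, the pump's setting inside most cells, had 5 of 12 members higher and 7 lower in the juice mean, with a median difference of -0.04 that came to 0.0015 with control replicate 3 left out and 0.0090 with juice replicate 1 left out. The 1 gene at unadjusted p under 0.05, lower in juice-fed larvae as were 2.00% of the genes tested, was Cln3, a lysosomal membrane protein whose human counterpart is altered in Batten disease. It had 4.95, 4.86 and 4.84 in juice-fed larvae, against 5.34, 5.12 and 6.09 in control larvae, a difference of -0.63 ± 0.25 (limma, adjusted p = 0.931), with every juice array below every control array, as in 5.08% of the genes tested. Control replicate 3 was its highest array, and without it the difference was -0.35. Hexo2, a hexosaminidase, differed by -0.29 ± 0.21, the lysosomal protease gene cathD by -0.29 ± 0.21, and spin, a lysosomal efflux carrier, by 0.23 ± 0.16.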

How the data were processed

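The authors deposited log2 expression values, 1 per array row, from single-channel Affymetrix arrays, and RMA and Affymetrix Expression Console 1.4.0.38 are named per the submitters' processing notes. Per the labels' protocols, 100 ng of total RNA was labelled with WT PLUS reagents. Further processing steps are not stated in them. RMA as generally defined equalises arrays, so a shift of most transcripts would largely be removed. The medians of the deposited arrays still ran from 3.60 to 3.77. With array medians made equal, the median difference of the main subunits was 0.19, against 0.14 in the values as deposited. The median of all genes moved as well, from -0.02 to 0.026. The median of the main subunits minus that of the minor paralogs stayed at 0.18.

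Of 16322 rows, 13441 had 1 gene symbol, and the brightest row per gene was kept. Juice and control arrays were set against each other by limma 3.58.1 (lmFit, eBayes; R 4.3.3) on 10051 genes, with Benjamini-Hochberg adjustment over all of them. The procedure was tested on simulated data. The changes put into those data were far larger than the members' differences, so that test says nothing about differences of this size. Members below the filter take their differences and standard errors from the same fit with no filter. P-values measure only the spread between 3 pools per group, which may in part be technical, and that number limits precision.

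All members are accounted for. Main subunits, VhaAC45 and the 8 paralogs past the filter with the smallest unadjusted p have every array's value, and the up to 4 genes with the smallest unadjusted p are named in the ion transport, lysosome, and assembly and regulation lists. Mitf, Rbcn-3B, CAH2 and the tissue markers were named in addition, after their values were seen. The members, classes and lists (testis, tubule, midgut, nervous system, ion transport, assembly and regulation, lysosome) were chosen with earlier results of these data known. List names without a row of exactly 1 gene were not used. Alternatives were each array left out, a block for the replicate number, different filters and scalings, variance models, array weights and averaged rows. Leaving out control replicate 1 and juice replicate 2 together was added after seeing the data.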

Additional observations from a re-analysis of the deposited data

How the results depend on the processing

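The count of genes called by limma was 0 under every alternative with all arrays, and 0 to 4 with 1 array left out, the 4 arising without juice replicate 3. At unadjusted p under 0.05, the count of all genes, 470 as reported, ran from 181 to 750 with 1 array left out, and the count of members from 0 to 1. The member was Vha36-3 without juice replicate 3 (difference 0.41, adjusted p = 0.846) and Vha100-5 without control replicate 2 (0.54, adjusted p = 0.828). The median difference of the 31 members, 0.067, ran from 0.018 to 0.082 with 1 array left out. It was 0.11 with equal array medians, where the median of all genes was 0.026, and 0.12 with the dimmest 50% of genes left out. The median of the main subunits minus that of the minor paralogs, 0.18, ran from 0.095 to 0.28, and was 0.033 under that stricter filter, where 4 minor paralogs remained and 1 of those 4 had a lower juice mean. The 12 main subunits kept a higher juice mean under every alternative with all arrays, and 8 to 12 of them with 1 array left out. Without control replicate 1 and juice replicate 2 together, differences turned to -0.025 in Vha14-1, -0.20 in VhaM9.7-b and -0.057 in VhaPPA1-1 and reached 0.29 in Vha26. The cause was not tested. With the replicate number as a block, limma called 0 genes, and 484 genes at unadjusted p under 0.05. Same-numbered arrays of different groups deviated by correlations of -0.11, -0.074 and -0.082, which gave no sign of pairing by number. With 3 arrays per group, whose deviations sum to 0, these values cannot exclude a pairing. Differently numbered arrays ran from -0.11 to 0.18. The highest were juice replicate 1 with control replicate 2 (0.18), juice 3 with control 1 (0.15) and juice 2 with control 3 (0.10). Values near the filter, as in most minor paralogs, lie where RMA values compress differences.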
